A study of Mus musculus with 12 samples.

Results

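The genes described here encode the constitutive proteasome, its assembly factors and its activators: 43 genes whose symbols are Psma, Psmb, Psmc, Psmd, Psme, Psmf or Psmg followed by a number. The symbol pattern matched 44 of 50643 listed genes once 4 inducible genes (Psmb8, Psmb9, Psmb10 and Psme1) had been left out, and members needed a summed count of at least 100 over 12 libraries. Psmb11, the beta subunit of the thymus, lay just outside with a summed count of 76. Psma8, the alpha subunit of the testis, lay just inside with 213, and the next member, Psmg4, had 3141. All 43 members passed the filter on low counts, which kept 16694 genes for testing.

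The proteasome is the protease that degrades proteins tagged with ubiquitin in the cytosol and nucleus. Its core particle is a barrel of alpha rings, which gate the entrance, and beta rings, which carry the proteolytic sites. The regulatory particle sits on the barrel: ATPases of its base unfold substrates, other base subunits capture ubiquitin, and the lid removes the ubiquitin chain. Dedicated chaperones assemble both particles, and alternative activators can take the place of the regulatory particle. In immune cells interferon gamma induces catalytic subunits that replace the constitutive ones and alter the peptides available to MHC class I, while the transcription factor NFE2L1 raises proteasome genes together when proteasome capacity falls short.

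RNA was sequenced from natural killer (NK) cells of C57BL/6 spleen, enriched by removing other cells, in 4 groups of 3 libraries. The groups were wild-type without challenge, wild-type challenged with the bacterium Listeria, and Mirc11-/- mice (here knockout) without and with that challenge. Mirc11 is the microRNA cluster of miR-23a, miR-27a and miR-24-2, whose loss the study relates to ubiquitin modifiers and NK cell inflammatory responses. Neither the labels nor the series text states the age of the mice, the dose and time of the challenge, or whether a library pooled animals. The series design speaks of biological replicates but ties none to an animal, so p-values measure the spread between these libraries, which may be technical. Replicates are numbered by the first number in their titles, 2 to 4 without challenge and 1 to 3 with it. A second number in the titles runs from 1 to 3 in every group.

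Libraries held 17624530 to 23665679 counts. The microRNA genes Mir23a, Mir27a and Mir24-2 had 0 counts in every library, so they check no label. Gm26532, a noncoding transcript beside them that was picked out after its values were seen, was at 2.29 to 4.8 CPM (counts scaled by library size) in wild-type libraries and at 0.112 to 0.951 in knockout libraries, except challenged knockout replicate 3 with 2.68 CPM. Gm37352, another transcript set beside the labels, was at 2.99 to 7.1 CPM in wild-type and 29.4 to 60.9 CPM in knockout libraries. Challenged knockout replicate 3 was lowest of the knockout libraries. The link of Gm37352 to the cluster was not tested. Sex-linked transcripts went with genotype. The summed level of 4 Y-linked transcripts was 1.17 to 3.20 CPM in 5 wild-type libraries, 115 CPM in unchallenged wild-type replicate 4, 281 to 356 CPM in unchallenged and 121 to 212 CPM in challenged knockout libraries. Xist, expressed from the inactive X chromosome, was at 0.359 to 1.07 CPM in unchallenged knockout, 523 to 1019 CPM in challenged knockout and 1179 to 1981 CPM in wild-type libraries. Genotype and sex therefore cannot be told apart, and challenged knockout libraries held RNA with both kinds of sex-linked transcript. The unchallenged and challenged knockout groups thus differed in these transcripts too. Challenge and sex cannot be told apart in the knockout response, nor in the difference between the responses that is built on it. All 8 NK markers were present in every group, the sum being 5723 to 6580 CPM in unchallenged and 3579 to 3668 CPM in challenged wild-type, and 6174 to 6321 CPM in unchallenged and 4467 to 5037 CPM in challenged knockout libraries.

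In wild-type NK preparations nearly the whole proteasome rose on challenge: 41 of 43 members were called higher and 0 lower, where 32.4% of all tested genes were called higher and 30.9% lower (edgeR quasi-likelihood test, Benjamini-Hochberg adjusted p below 0.05). The median member changed by 0.68 on the log2 scale, against -0.01 for all tested genes, and 42 members had every challenged library above every unchallenged one, against 35.1% of all genes. Psmd9 and Psmf1 were the members not called. The summed level of the 43 genes was 2838 ± 13.6 CPM (SD, n = 3) without and 4673 ± 209 CPM with challenge, or 0.29% and 0.444% of all counts.

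In knockout preparations fewer members passed the test and the changes were smaller. On challenge 26 were called higher and 0 lower, with 15.6% of all genes called higher and 11.5% lower, and the median change was 0.25. The summed level was 2862 ± 56.7 CPM without and 3384 ± 99.2 CPM with challenge. Of the 17 members not called, 4 were beta ring and 5 were assembly genes.

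Between the genotypes, unchallenged libraries hardly differed in these genes: 1 member (Psme3) was called higher in knockout and 0 were called lower, against 6.64% and 5.07% of all genes, and 2 members were higher at an unadjusted p below 0.05. DESeq2 likewise called 1 higher. After challenge 37 members were called lower in knockout than in wild-type and 0 higher, against 25.9% and 22.7% of all genes, with a median of -0.43, and 36 had every knockout library below every wild-type one, against 28.1% of all genes. The test of the difference between the responses to challenge called 33 members lower in knockout and 0 higher, against 18.5% and 16.7% of all genes, with a median of -0.41. The comparisons share libraries and are not separate evidence. Without unchallenged wild-type replicate 4, which held both kinds of sex-linked transcript, the members called were 40 in wild-type, 25 in knockout, 1 without challenge, 37 after challenge and 29 for the difference. Without challenged knockout replicate 3 they were 41, 23, 1, 35 and 30.

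The log2 response in knockout was set against that in wild-type across the 43 members, which share libraries and are not independent. Pearson r was 0.761 and Spearman rho 0.72, beside a Pearson r of 0.663 over all tested genes. The signed log2 change was lower in knockout for 42 members, Psmf1, which was called in neither genotype, among them. It was higher in knockout for 1 member and for 8419 of the 16694 tested genes. Of the members called higher in wild-type, 26 were also called in knockout and 15 were not, a split that was not counted over all genes. The median knockout response of the 41 was 0.363 times the wild-type response on the log2 scale. All 4069 genes called higher in wild-type within the same range of change, the members among them, had a median of 0.342, close to the members' ratio. Both sets were chosen by the wild-type change that is also the divisor. This favours low ratios in advance, so the size of the ratios is no evidence of a weaker response.

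Markers of other cells moved in the same libraries. In wild-type all 8 neutrophil markers rose on challenge (summed level 48.2 to 55.4 CPM without and 1531 to 1829 CPM with challenge), as did 7 of 8 macrophage and monocyte markers and 5 of 5 genes of dividing cells (302 to 391 and 1183 to 1373 CPM), while 6 of 8 NK markers and 7 of 7 erythroid markers fell and the NK marker Prf1 rose (mean 627 CPM without and 950.2 CPM with challenge). After challenge, knockout libraries had lower values than wild-type for 6 of 8 neutrophil markers (714 to 1088 CPM) and 5 of 5 genes of dividing cells (829 to 858 CPM), and higher values for 6 of 8 NK markers and 7 of 7 erythroid markers (19280 to 24840 against 1816 to 2424 CPM). The other 2 neutrophil markers were higher in challenged knockout, Camp with a mean of 15.7 against 7.7 CPM and Ltf with 47.3 against 31.7 CPM, and Prf1 was lower there (564 CPM). In that comparison 6 of 8 macrophage and monocyte markers were called lower in knockout and 1 higher. Of the B cell markers 4 of 5 were called lower, and 6 of 6 T cell markers were called higher. All 5 B cell markers rose on challenge in both genotypes, while 6 of 6 T cell markers fell in wild-type (191 to 213 CPM without and 141 to 144 CPM with challenge) and rose in knockout (136 to 149 and 202 to 233 CPM). No defining marker was at 0 in any group. Their part in the proteasome changes was not tested, and in bulk RNA fewer cells of a type and less RNA per cell cannot be told apart. Without challenge the knockout libraries already differed in these lists, with 8 of 8 neutrophil (426 to 440 CPM), 7 of 7 erythroid (36260 to 40940 against 11400 to 13260 CPM) and 5 of 5 dividing-cell markers (599 to 620 CPM) and 4 of 8 macrophage and monocyte markers called higher, beside the single proteasome gene called there. The 5 B cell markers were called lower (720.3 to 748 against 994 to 1105 CPM), as were 3 of 6 T cell markers.

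**Figure D1:**
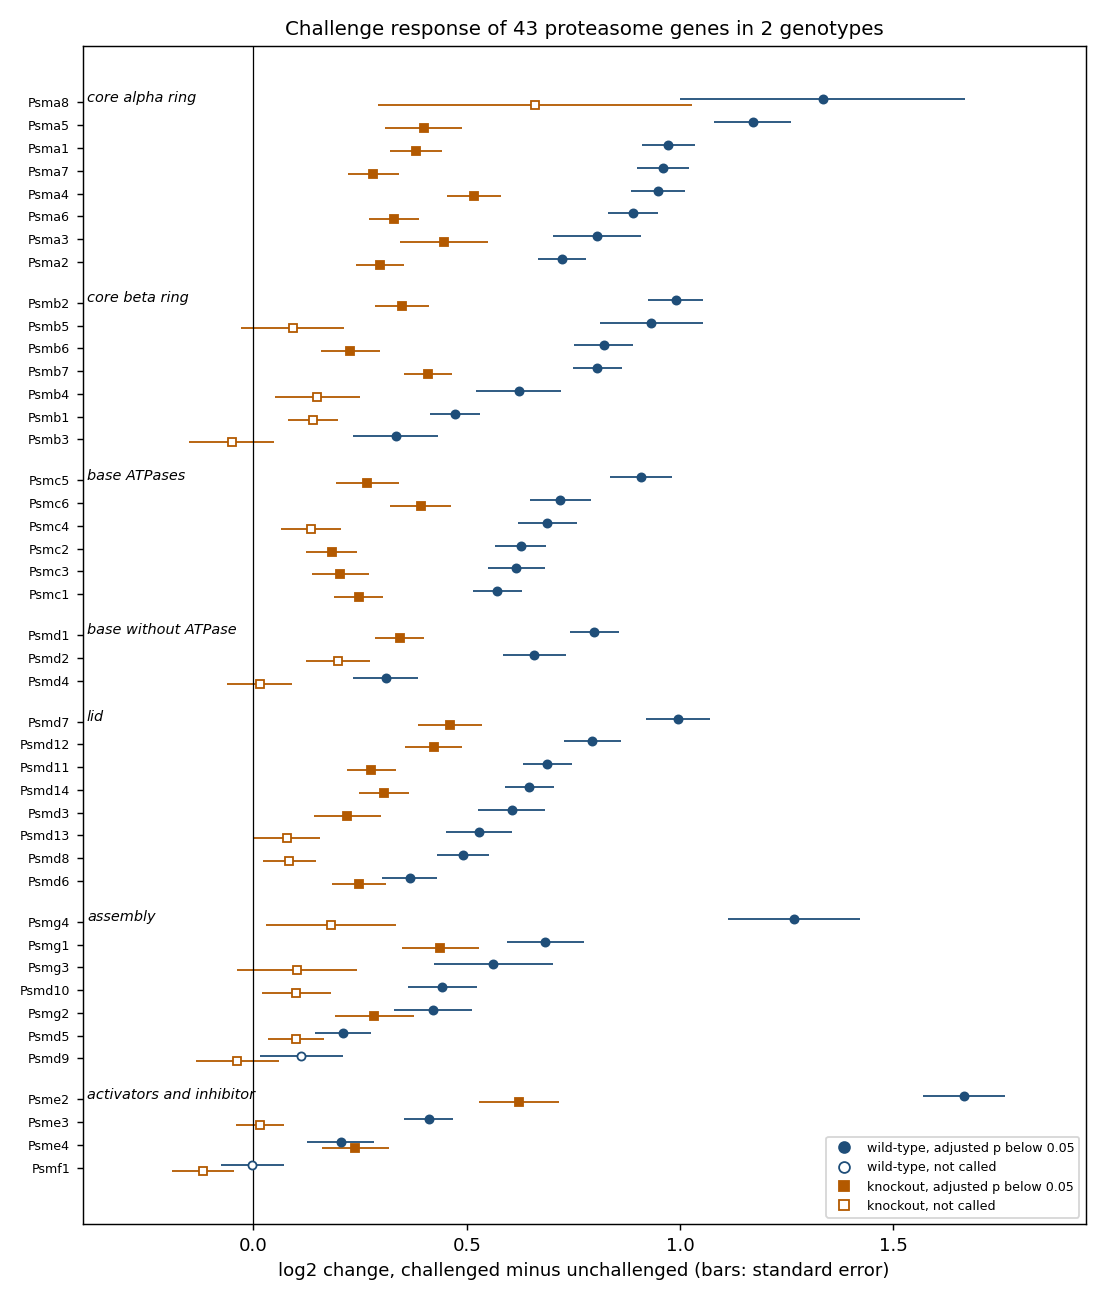
Log2 change on Listeria challenge (horizontal axis) of the 43 proteasome genes, grouped by role, in wild-type (blue circles) and knockout (brown squares) preparations, with the standard error as bars and open symbols where the edgeR adjusted p was not below 0.05. The wild-type point lies to the right of the knockout point for 42 of the genes, Psme4 being the exception.

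The alpha ring, whose subunits form the gated ends of the core, rose as a whole in wild-type: 8 of 8 genes were called higher, from 0.72 for Psma2 to 1.33 for Psma8, with a median of 0.95. In knockout 7 of 8 were called higher with a median of 0.39, 8 of 8 were lower than in wild-type after challenge, and 6 of 8 had a smaller response. Psma5 measured 53.2, 53.6 and 55.4 CPM in unchallenged wild-type and 109, 119.9 and 136 CPM in challenged wild-type libraries, against 54.6, 57.5 and 64.1 CPM and 82.6, 81.0 and 68.9 CPM in knockout. The challenged libraries were above the unchallenged ones in both genotypes, and the change was 1.17 ± 0.091 (log2 ± SE, here and below) in wild-type and 0.40 ± 0.090 in knockout. The difference of -0.77 ± 0.13 passed the edgeR test (adjusted p = 0.000243).

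Psma7, another gate subunit, had the smallest p of any member for the difference between the responses. Its levels were 82.3, 80.1 and 81.8 CPM in unchallenged and 162, 154 and 159.9 CPM in challenged wild-type, and 86.7, 84.4 and 90.2 CPM in unchallenged and 114, 100 and 103 CPM in challenged knockout libraries. No groups overlapped, the wild-type change being 0.96 ± 0.061, the knockout change 0.28 ± 0.061 and their difference -0.68 ± 0.086 (edgeR adjusted p = 2.15e-05). Psma1 stood at 86.0, 74.9 and 80.3 CPM without and 163, 151 and 159 CPM with challenge in wild-type, and at 81.2, 80.7 and 78.5 CPM and 104, 108 and 102 CPM in knockout. Its unchallenged groups overlapped and its challenged groups did not, with a difference between the responses of -0.59 ± 0.086 (edgeR adjusted p = 8.13e-05).

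Psma6 showed the same order of groups, at 66.7, 70.0 and 71.7 CPM, then 126, 130.4 and 129 CPM in wild-type, and 68.1, 67.9 and 69.2 CPM, then 87.7, 89.9 and 80.1 CPM in knockout. After challenge it was lower in knockout by a log2 change of -0.58 ± 0.058 (edgeR adjusted p = 8.78e-07). Psma8, which replaces Psma7 in germ cells, was nearly silent: 0.908, 0.547 and 0.350 CPM without and 1.78, 1.40 and 1.36 CPM with challenge in wild-type, and 0.280 to 0.589 CPM and 0.672 to 0.815 CPM in knockout. Its rise in wild-type of 1.33 ± 0.33 (edgeR adjusted p = 0.00265) rests on 213 counts over all libraries. The call of a lower level in challenged knockout was lost without challenged wild-type replicate 1 (adjusted p = 0.0659) or challenged knockout replicate 1 (0.0518). Psma3 likewise lost that call without challenged wild-type replicate 2 (0.061), and its response differed between genotypes without challenged wild-type replicate 1 (0.0429) or challenged knockout replicate 2 (0.00775) but not with them.

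The beta ring rose in wild-type too, with 7 of 7 genes called higher, from 0.33 for Psmb3 to 0.99 for Psmb2, and a median of 0.81. In knockout 3 of 7 were called with a median of 0.15, 7 of 7 were lower than in wild-type after challenge and 7 of 7 had a smaller response. Psmb2, a structural subunit, went from 50.9, 51.9 and 49.2 CPM to 105, 93.8 and 103 CPM in wild-type and from 50.6, 49.9 and 55.0 CPM to 67.8, 64.9 and 65.2 CPM in knockout. Neither genotype's groups overlapped, and the responses differed by -0.64 ± 0.090 (edgeR adjusted p = 6e-05).

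Of the catalytic subunits, Psmb5 carries the chymotrypsin-like, Psmb6 the caspase-like and Psmb7 the trypsin-like activity. Psmb5 was at 45.1, 48.7 and 46.9 CPM in unchallenged and 71.3, 95.4 and 102 CPM in challenged wild-type, and at 51.1, 48.5 and 52.2 CPM in unchallenged and 62.3, 52.5 and 46.9 CPM in challenged knockout libraries. The wild-type groups did not overlap (0.93 ± 0.12, edgeR adjusted p = 8.58e-06), whereas the knockout groups did (0.09 ± 0.12, adjusted p = 0.628), and without challenged knockout replicate 1 the knockout value was -0.03. The difference between the responses was -0.84 ± 0.17 (edgeR adjusted p = 0.00141).

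Psmb6 measured 57.5, 62.3 and 64.4 CPM without and 104, 108 and 113 CPM with challenge in wild-type, and 60.3, 63.0 and 64.2 CPM and 79.5, 69.1 and 71.0 CPM in knockout. It rose by 0.82 ± 0.069 in wild-type and by 0.23 ± 0.069 in knockout, with a difference of -0.59 ± 0.097 (edgeR adjusted p = 0.000235). The knockout call was lost without unchallenged knockout replicate 2 (adjusted p = 0.0926) or 3 (0.0631) or challenged knockout replicate 1 (0.0817). Psmb7 measured 58.6, 59.1 and 60.5 CPM, then 97.9, 106 and 107 CPM in wild-type, and 55.8, 57.6 and 56.3 CPM, then 76.5, 74.2 and 74.7 CPM in knockout. Both genotypes rose without overlap, by 0.81 ± 0.056 and 0.41 ± 0.057, and differed by -0.40 ± 0.080 (edgeR adjusted p = 0.00121).

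Psmb3, a structural subunit, had the smallest change of the ring, 0.33 ± 0.099 in wild-type and -0.05 ± 0.10 in knockout. Its wild-type call was lost without challenged wild-type replicate 3 (edgeR adjusted p = 0.0551), and the call of a smaller response in knockout was lost without any 1 of 9 libraries, at adjusted p-values of 0.0568 to 0.124. Those libraries were every unchallenged wild-type replicate, challenged wild-type replicates 2 and 3, unchallenged knockout replicates 3 and 4, and challenged knockout replicates 2 and 3.

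The promoters of Psmb5 and Psmb6 are examples and not typical of the members. Both hold a match to TGACNNNGC, which most member promoters searched lacked. Windows of 150 bases on the gene's strand, 120 before and 30 after the start (RefSeq, GRCm38.p6), are printed for Psmb5 at chr14:54617966-54618115 on the minus strand and Psmb6 at chr11:70525237-70525386 on the plus strand. Capitals mark a match to TGACNNNGC, the core of the antioxidant response element that NFE2L1 and related factors bind. The third window is that of the assembly gene Psmg4, at chr13:34162844-34162993 on the plus strand, with capitals for a match to GAAANNGAA, an interferon-stimulated element core that was added to the search after the values were seen.
Psmb5: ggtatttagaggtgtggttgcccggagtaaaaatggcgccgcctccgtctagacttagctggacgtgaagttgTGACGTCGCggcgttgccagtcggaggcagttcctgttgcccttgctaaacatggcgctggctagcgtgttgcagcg
Psmb6: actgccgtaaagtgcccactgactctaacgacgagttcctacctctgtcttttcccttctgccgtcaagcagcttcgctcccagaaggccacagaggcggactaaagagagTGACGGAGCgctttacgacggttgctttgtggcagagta
Psmg4: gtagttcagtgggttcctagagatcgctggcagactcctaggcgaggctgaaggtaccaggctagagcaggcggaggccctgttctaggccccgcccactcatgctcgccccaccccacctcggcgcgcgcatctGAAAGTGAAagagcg
The search covered 250 bases before to 50 after the start on both strands, in 38 promoters of 35 members. Psma8, Psmb1, Psmb2, Psmb7, Psmc3, Psmd3, Psmd7 and Psmg2 were not matched in the promoter table. TGACNNNGC was found in 6 of 38 member promoters (15.8%), against 12.4% of all 32851 promoters in the table, and the CCAAT box, spelled CCAAT, in 12 (31.6%), against 37.4%. The E-box CACGTG was found in 3 (7.89%), against 7.15%, and GAAANNGAA in 6 (15.8%), against 8.56%. None of the TGACNNNGC or GAAANNGAA matches overlapped a match to another motif. These are matches of letters, given without a test. The 6 genes with TGACNNNGC were Psmb5, Psmb6, Psmc6, Psmd9, Psmd12 and Psme4, among them members with large wild-type changes (Psmb5, 0.93) and 1 with no call (Psmd9, 0.11). GAAANNGAA was found in Psmg4, where it starts at base 16 after the start, and in Psmb3, Psmb4, Psmc2, Psmd4 and Psmd9. Psmg4 had a wild-type change of 1.27. The others had 0.33, 0.62, 0.63, 0.31 and 0.11 in that order, all below the median member (0.68).

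**Figure D2:**
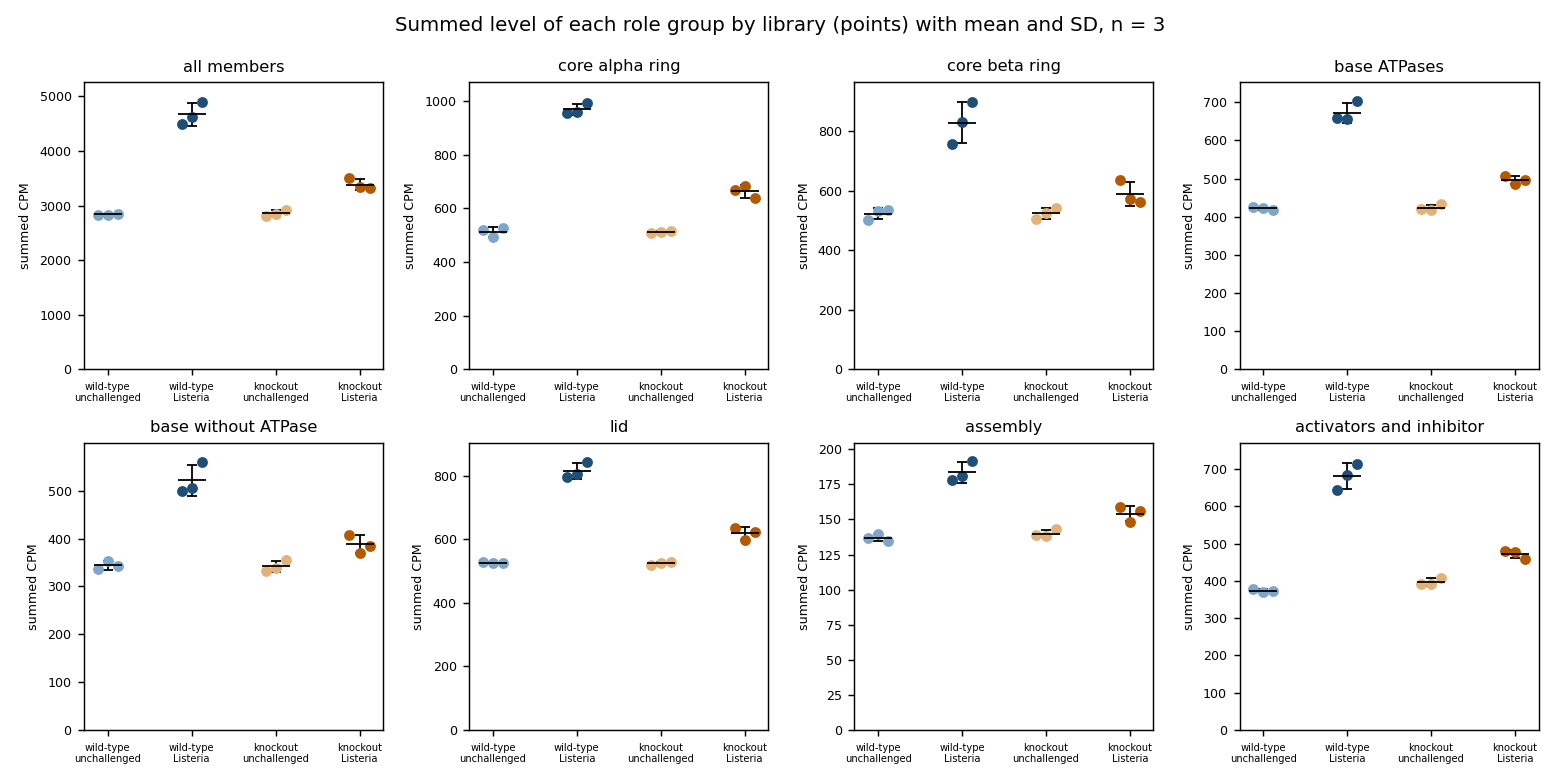
Summed level (vertical axis, CPM) of all members and of each role group by library (points), with mean and SD of 3 libraries, in the 4 groups. Every panel has challenged wild-type libraries highest, challenged knockout libraries between and unchallenged libraries lowest, with the unchallenged groups overlapping except for the activators and inhibitor.

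The base ATPases, the ring of motors that unfolds substrates, rose in wild-type as 6 of 6 genes, from 0.57 for Psmc1 to 0.91 for Psmc5, with a median of 0.66. In knockout 5 of 6 were called, with a median of 0.23, and all 6 were lower than in wild-type after challenge and had a smaller response. Psmc5 was at 51.8, 50.8 and 49.8 CPM without and 88.3, 97.9 and 99.6 CPM with challenge in wild-type, and at 49.9, 53.9 and 53.7 CPM and 69.4, 58.9 and 61.3 CPM in knockout. Unchallenged and challenged libraries did not overlap in either genotype, and the difference between the responses was -0.64 ± 0.10 (edgeR adjusted p = 0.000196). Its knockout call was lost without unchallenged knockout replicate 2 (adjusted p = 0.0638).

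Psmc6 was at 57.4, 57.8 and 53.0 CPM, then 94.6, 94.0 and 88.2 CPM in wild-type, and at 57.1, 52.6 and 49.1 CPM, then 65.0, 73.3 and 70.0 CPM in knockout. It kept more of its response in knockout than the other ATPases, 0.39 ± 0.071 against 0.72 ± 0.071 in wild-type. The difference of -0.33 ± 0.10 (edgeR adjusted p = 0.0197) lost its call without unchallenged wild-type replicate 4 (0.0595) or unchallenged knockout replicate 2 (0.0612). The knockout calls of Psmc2 (0.18 ± 0.059) and Psmc3 (0.20 ± 0.067) were each lost without any 1 of 4 knockout libraries, at edgeR adjusted p-values of 0.058 to 0.106 and 0.0824 to 0.132, namely unchallenged replicates 2 and 3 for both, unchallenged replicate 4 and challenged replicate 2 for Psmc2, and challenged replicates 1 and 3 for Psmc3.

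The base subunits without ATPase activity are the scaffolds Psmd1 and Psmd2 and the ubiquitin receptor Psmd4, and 3 of 3 rose in wild-type. Psmd1 was at 74.2, 72.6 and 76.5 CPM without and 137, 123 and 128 CPM with challenge in wild-type, and at 75.1, 74.1 and 73.6 CPM and 91.7, 93.5 and 97.4 CPM in knockout. Psmd2 was at 169, 179 and 167 CPM, then 245, 268 and 299 CPM in wild-type, and at 161, 168 and 177 CPM, then 206, 186 and 188 CPM in knockout. Both were higher in each challenged wild-type library than in any other library. The responses differed by -0.46 ± 0.081 for Psmd1 and -0.46 ± 0.10 for Psmd2 (edgeR adjusted p = 0.000464 and 0.00309). In knockout Psmd1 was called (0.34 ± 0.058) and Psmd2 was not (0.20 ± 0.074, adjusted p = 0.0606), though Psmd2 was called without challenged wild-type replicate 1 (0.0394) or 3 (0.0362), which changes the shared estimate of the spread.

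Psmd4 changed least in this group, by 0.31 ± 0.077 in wild-type and 0.01 ± 0.077 in knockout. Its smaller response in knockout (edgeR adjusted p = 0.047) was lost without any 1 of 9 libraries (0.0541 to 0.123), the exceptions being challenged wild-type replicates 1 and 2 and challenged knockout replicate 1. Its lower level in challenged knockout was lost without challenged knockout replicate 2 (0.054).

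The lid rose in wild-type as 8 of 8 genes, from 0.37 for Psmd6 to 0.996 for Psmd7, with a median of 0.63. Of these, 6 were called in knockout with a median of 0.26, 7 were lower after challenge in knockout and 7 had a smaller response, the exception in both being Psmd6. Psmd14 is the metalloprotease that removes the ubiquitin chain. It measured 59.8, 61.5 and 60.8 CPM without and 96.1, 94.9 and 94.2 CPM with challenge in wild-type, and 59.0, 60.2 and 55.5 CPM and 72.2, 75.1 and 68.5 CPM in knockout. Both genotypes rose without overlap, by 0.65 ± 0.058 and 0.31 ± 0.058, and differed by -0.34 ± 0.082 (edgeR adjusted p = 0.00431).

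Psmd7, the partner of Psmd14 in the lid, measured 52.4, 47.3 and 47.3 CPM, then 101, 94.7 and 97.1 CPM in wild-type, and 50.7, 48.9 and 46.9 CPM, then 67.6, 60.6 and 73.5 CPM in knockout. Psmd12, a structural lid subunit, measured 46.9, 47.8 and 43.2 CPM, then 84.7, 77.5 and 77.0 CPM in wild-type, and 41.0, 44.6 and 41.6 CPM, then 55.2, 57.7 and 57.8 CPM in knockout. Both kept challenged wild-type libraries above challenged knockout libraries, and those above the unchallenged ones. The responses differed by -0.53 ± 0.11 for Psmd7 and -0.37 ± 0.094 for Psmd12 (edgeR adjusted p = 0.00104 and 0.0062).

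Psmd6 differed by -0.13 ± 0.063 between the challenged genotypes (edgeR adjusted p = 0.102) and was called without challenged wild-type replicate 1 (0.0301). The knockout call of Psmd3 (0.22 ± 0.078, edgeR adjusted p = 0.0495) sat at the threshold and was lost in 9 of 12 fits with 1 library left out (0.0553 to 0.186), being held without challenged wild-type replicates 1 or 3 or challenged knockout replicate 2.

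**Figure D3:**
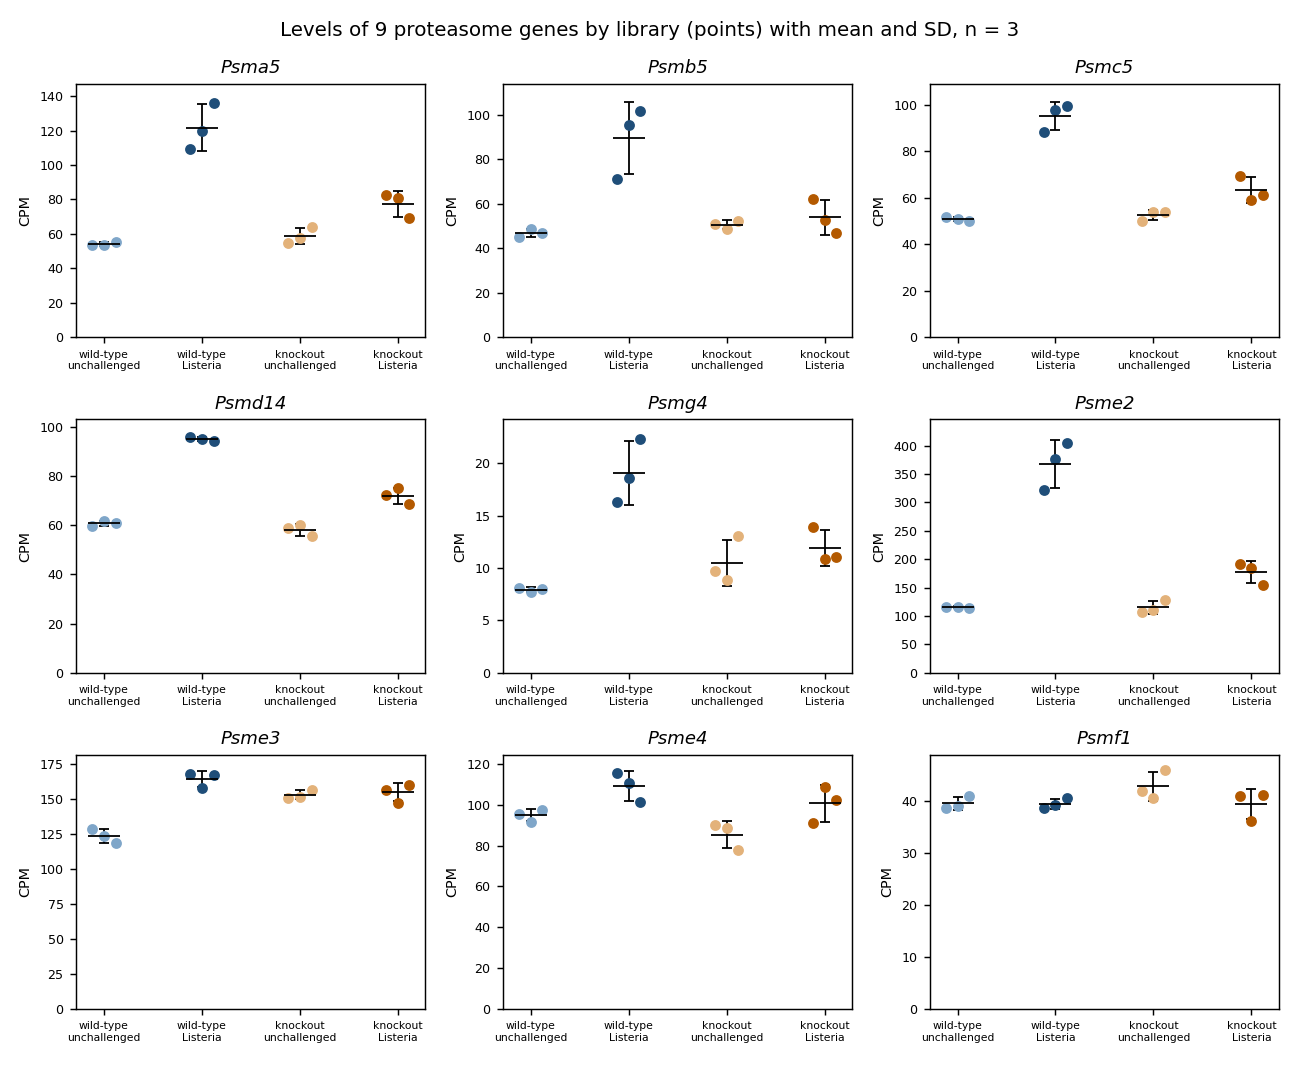
Level (vertical axis, CPM) of 9 proteasome genes in each library (points), with mean and SD of 3 libraries, in the 4 groups. Psma5, Psmb5, Psmc5, Psmd14, Psmg4 and Psme2 have challenged wild-type libraries above the rest, while Psme3 is lowest in unchallenged wild-type and Psmf1 lies between 36.2 and 46.0 CPM in every library.

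The assembly factors were a mixed group, with 6 of 7 called higher in wild-type, a median of 0.44 and a range from 0.11 for Psmd9 to 1.27 for Psmg4. In knockout 2 of 7 were called (Psmg1 and Psmg2), and the responses differed for 2 of 7, Psmg4 and Psmd10. Psmg4 pairs with Psmg3 to guide the alpha ring, and measured 8.12, 7.66 and 8.0 CPM without and 16.3, 18.6 and 22.3 CPM with challenge in wild-type, and 9.70, 8.85 and 13.0 CPM and 13.9, 10.8 and 11.1 CPM in knockout. The wild-type groups were apart (1.27 ± 0.15) and the knockout groups overlapped (0.18 ± 0.15, edgeR adjusted p = 0.426). The difference was -1.08 ± 0.22 (edgeR adjusted p = 0.0012), the largest of the 43 in size.

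Psmg1, which pairs with Psmg2 at an earlier step of ring formation, measured 11.6, 12.9 and 12.1 CPM, then 20.4, 19.6 and 18.8 CPM in wild-type, and 11.1, 11.1 and 12.7 CPM, then 15.7, 15.1 and 16.6 CPM in knockout. It rose in both genotypes, and its response did not pass the test of a difference (-0.25 ± 0.13, edgeR adjusted p = 0.15). Psmg2 lost its knockout call without any 1 of 5 knockout libraries (0.0595 to 0.108), all but challenged replicate 3. Psmg2 and Psmg3 lost the call of a lower level in challenged knockout without challenged wild-type replicate 3 (edgeR adjusted p = 0.0742 and 0.0757) or challenged knockout replicate 3 (0.062 and 0.0716), and Psmg3 also without challenged wild-type replicate 2 (0.0759) or challenged knockout replicate 2 (0.108). The response of Psmg3 was called different without challenged wild-type replicate 1 (0.0363) or challenged knockout replicate 1 (0.0105).

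Psmd5, Psmd9 and Psmd10 are chaperones of the ATPase ring. Psmd5 rose by 0.21 ± 0.066 in wild-type, a call lost without challenged wild-type replicate 3 (edgeR adjusted p = 0.0562), and Psmd9 changed by 0.11 ± 0.097 (0.324). Psmd10 rose by 0.44 ± 0.081 in wild-type and measured 0.10 ± 0.081 in knockout. The difference of -0.34 ± 0.11 (edgeR adjusted p = 0.0309) was lost without any 1 of 7 libraries (0.0604 to 0.0771), namely unchallenged wild-type replicates 3 and 4, challenged wild-type replicate 1, unchallenged knockout replicates 2 and 4 and challenged knockout replicates 1 and 3.

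The activators and the inhibitor each followed a pattern of their own. Psme2 (chr14:55587441-55591113, minus strand, GRCm38) forms, with Psme1, the activator ring induced by interferon gamma, and had the largest wild-type change of the 43 genes. It measured 116, 117 and 115 CPM in unchallenged and 322, 377 and 404 CPM in challenged wild-type, and 107, 110.3 and 128 CPM in unchallenged and 191, 185 and 155 CPM in challenged knockout libraries. Every challenged wild-type library was above every challenged knockout library, and those were above all unchallenged ones. The change was 1.67 ± 0.096 in wild-type and 0.62 ± 0.094 in knockout, the responses differed by -1.04 ± 0.13 (edgeR adjusted p = 2.32e-05), and challenged knockout was lower by -1.05 ± 0.094 on the log2 scale (adjusted p = 2.75e-07). Psme2b, a copy with 789 of 794 aligned bases identical (99.4%), was at mean levels of 19.0 and 39.1 CPM in wild-type and 17.2 and 26.3 CPM in knockout, without and with challenge. Reads could be split between the pair, so the levels of both are uncertain.

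Psme3 (chr11:101316213-101323537, plus strand, GRCm38), the subunit of the nuclear activator, was the one member called between the unchallenged genotypes. It measured 129, 124 and 119 CPM in unchallenged and 168, 158 and 168 CPM in challenged wild-type, and 151, 152 and 157 CPM in unchallenged and 157, 148 and 160.1 CPM in challenged knockout libraries. Unchallenged wild-type libraries were below all others, while the 2 knockout groups overlapped, as did the 2 challenged groups. Without challenge it was higher in knockout by 0.31 ± 0.057 (edgeR adjusted p = 0.00169). It rose in wild-type by 0.41 ± 0.057, measured 0.02 ± 0.057 in knockout, with a difference of -0.40 ± 0.080 (edgeR adjusted p = 0.00135). Psmg4 had the second smallest p between the unchallenged genotypes and was not called (0.41 ± 0.16, edgeR adjusted p = 0.13), although its knockout libraries were above its wild-type ones.

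Psme3 was higher in unchallenged libraries that lack the Mirc11 cluster by label, and its 3' UTR was therefore searched for seed matches to the microRNAs. Those libraries also differed from unchallenged wild-type in sex-linked transcripts and in markers of other cells. The part of the cluster in the level of Psme3 was not tested. The mature sequences from RefSeq (GRCm38.p6, chromosome 8, plus strand) follow with the seed, bases 2 to 8, in capitals, and are at chr8:84208563-84208583, chr8:84208727-84208747 and chr8:84208875-84208896.
miR-23a-3p: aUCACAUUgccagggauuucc
miR-27a-3p: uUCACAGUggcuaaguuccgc
miR-24-3p: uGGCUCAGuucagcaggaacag
The 3' UTR of Psme3, 1665 bases on chromosome 11, held 2 matches to the miR-24-3p seed, at positions 540 to 546 and 1510 to 1516, shown with the match in capitals.
Psme3 site at 540: tccatcccgctCTGAGCCtgactgtggcg
Psme3 site at 1510: atcccttccagCTGAGCCcctcccctccc
Matches to any of the 3 seeds were found in 6 of 43 members (14%), against 5459 of 13531 tested genes with a 3' UTR (40.3%). The members' 3' UTRs had a median of 296 bases and those of the tested genes 1148, and a longer sequence has more chances of a match. The other members with matches were Psma1, Psma2, Psma3, Psmc3 and Psmd5, and their unchallenged genotype differences were -0.01 ± 0.061, -0.09 ± 0.057, 0.00 ± 0.10, 0.02 ± 0.067 and 0.05 ± 0.066, none of them called. The matches in Psma1 and Psmd5 were of the 8mer type, the seed match followed by an A. All others, those of Psme3 among them, were of the 7mer-m8 type, without that A. A match is a description of the sequence and says nothing of binding.

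Psme4, the large activator linked to histone degradation, was the member whose signed log2 change was not lower in knockout. It measured 95.5, 91.7 and 97.4 CPM without and 116, 111 and 102 CPM with challenge in wild-type, and 90.02, 88.4 and 77.9 CPM and 90.9, 109 and 102 CPM in knockout. The changes were 0.20 ± 0.078 and 0.24 ± 0.078, with a difference of 0.03 ± 0.11 (edgeR adjusted p = 0.839). Both calls were near the threshold (edgeR adjusted p = 0.0326 and 0.0345). The wild-type one was lost without any 1 of 5 wild-type libraries (0.0522 to 0.118), all but challenged replicate 3, and the knockout one without unchallenged replicate 3 or 4 or challenged replicate 2 or 3 (0.0592 to 0.158). Psmf1, an inhibitor of the core particle in vitro, measured 38.7, 39.1 and 41.0 CPM, then 38.7, 39.3 and 40.5 CPM in wild-type, and 42.0, 40.5 and 46.0 CPM, then 41.1, 36.2 and 41.2 CPM in knockout. Its groups overlapped, at -0.00 ± 0.074 (adjusted p = 0.976) and -0.12 ± 0.073 (0.266).

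The constitutive catalytic subunits can be set beside the inducible ones that replace them. Psmb8, Psmb9, Psmb10 and Psme1 were all called higher on challenge in both genotypes, by 1.01 to 1.503 in wild-type and 0.33 to 0.67 in knockout, and all 4 had a smaller response in knockout. Per kilobase of exon, Psmb9 made up 56.9% ± 1.3 (SD, n = 3) of the sum of Psmb9 and Psmb6 in unchallenged and 67.8% ± 2.4 in challenged wild-type, and 52.7% ± 0.58 and 60% ± 2.8 in knockout. Its ranges overlapped between no groups except challenged knockout and unchallenged wild-type. The share of Psmb8 in its pair with Psmb5 was 71.4% ± 0.39 and 73.7% ± 1.3 in wild-type, and 67.8% ± 1.1 and 72.3% ± 0.38 in knockout, without and with challenge. The share of Psmb10 in its pair with Psmb7 was 62.6% ± 1.6 and 65.9% ± 1.5 in wild-type, and 63.9% ± 1.1 and 62.4% ± 3.1 in knockout, where the ranges overlapped. The inducible form thus held more than the constitutive one in each pair before any challenge, by RNA level. They are shares of RNA, given without a test.

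**Figure D4:**
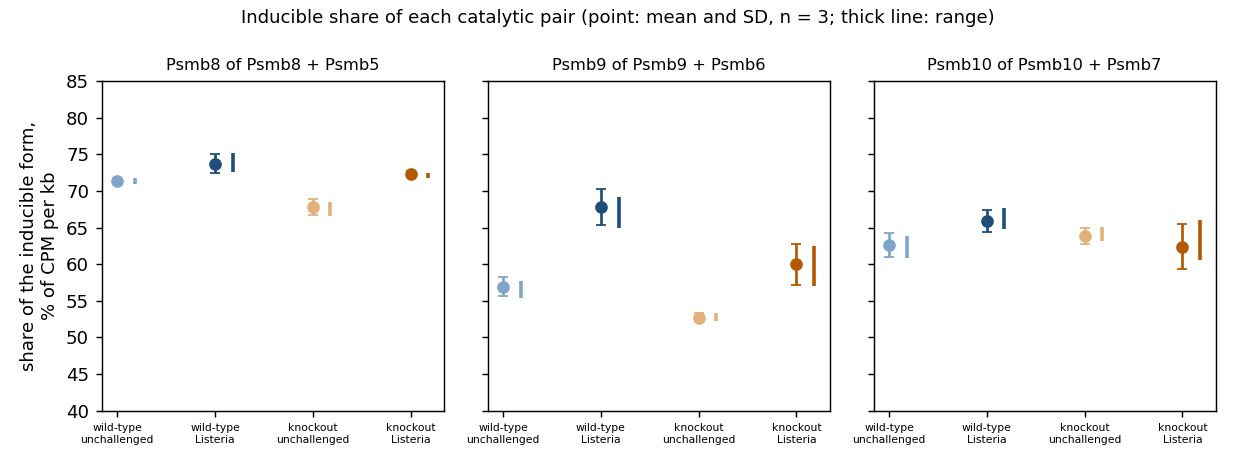
Share of the inducible form in each catalytic pair (vertical axis, % of the pair's CPM per kilobase, axis from 40 to 85) by group, as mean and SD of 3 libraries with the range as a thick line. The share of Psmb9 has the widest span between groups, 52.7% to 67.8%, and that of Psmb10 the narrowest, 62.4% to 65.9%.

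Subunits that occupy 1 place each in the particle were not at equal RNA levels per kilobase of annotated exon. Per kilobase of exon and without Psma8, the 14 core genes had a median of 59.7 CPM per kilobase in unchallenged wild-type, from Psma3 with 21.9 to Psmb3 with 118, a ratio of 5.42. On challenge the ratio was 3.91 (38.2 to 149 CPM per kilobase) and the coefficient of variation across the 14 genes was 35%, against 42% before. In knockout the ratio was 5.43 without and 3.85 with challenge. The 17 regulatory particle genes were closer together, with Psmd12 lowest and Psmd2 highest and ratios of 3.34 and 3.04 in wild-type and 3.56 and 3.05 in knockout. Exon lengths came from the GENCODE vM21 annotation (GRCm38). Psma3 has 2846 annotated exon bases and Psmb3 766. Without division by length they were at means of 62.2 and 90.7 CPM in unchallenged wild-type. The ends of the core thus depend on annotated lengths, and whether these libraries used the full lengths was not tested. The principal transcripts of both genes have the same lengths, so the alternative given next does not check this. With the length of the principal transcript, an alternative added after the values were seen, the core ratios were 5.42, 4.54, 5.43 and 3.88 in the order of the groups above, and the highest core gene in both challenged groups was Psma7. The regulatory ratios with that length were 3.07, 2.29, 3.34 and 2.53, and the ends changed: Psmd4 was highest except in challenged wild-type (Psmd2), and Psmd1, Psmd11 or Psmd12 was lowest.

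**Figure D5:**
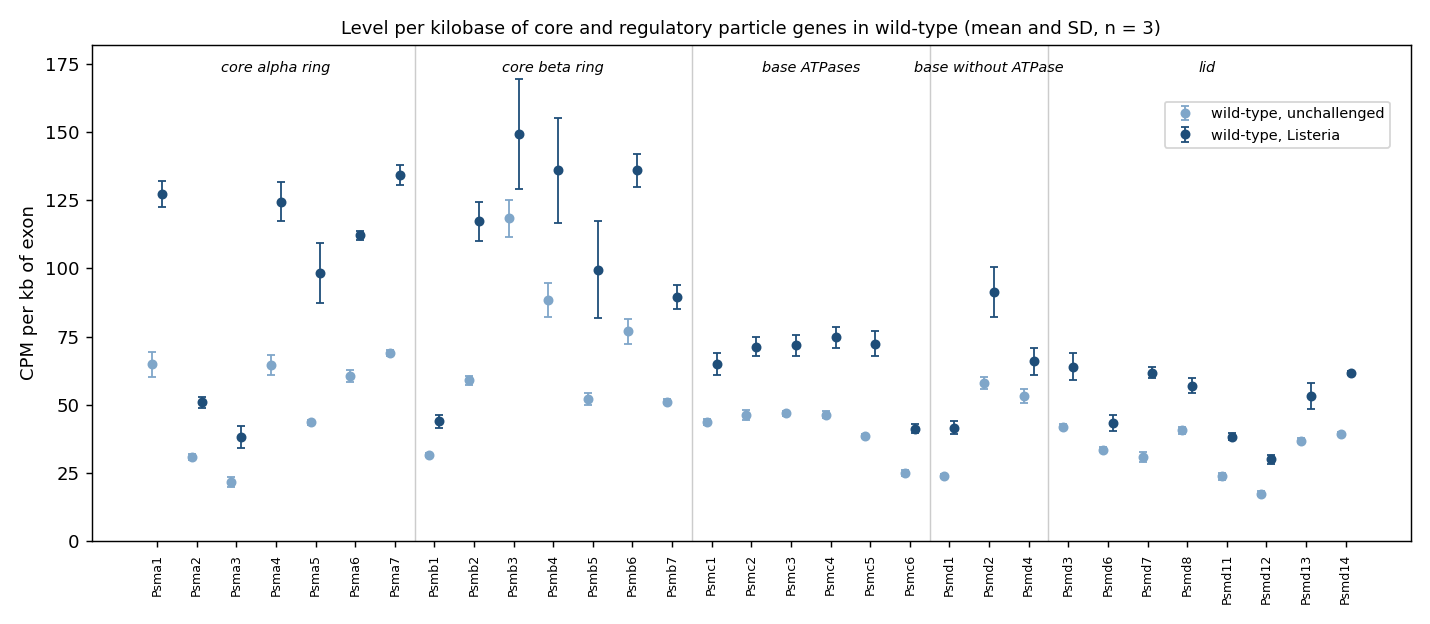
Level per kilobase of exon (vertical axis, CPM per kb) of the 14 core and 17 regulatory particle genes in unchallenged (light) and challenged (dark) wild-type libraries, as mean and SD of 3 libraries. Every gene has its challenged mean above its unchallenged mean, and Psma3 and Psmb3 mark the ends of the core.

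Genes around the proteasome moved in part with it. Of 16 other subunits and cofactors tested, 10 were called higher on challenge in wild-type and 7 in knockout, 9 were lower in challenged knockout than in challenged wild-type, and 7 had a smaller response. Pomp, the chaperone that matures the beta ring, had the largest wild-type change of the list, from 61.5, 59.8 and 60.7 CPM to 119, 132 and 142 CPM, and went from 66.0, 62.6 and 69.5 CPM to 88.2, 86.3 and 79.1 CPM in knockout. Its groups did not overlap within either genotype, and the responses differed by -0.75 ± 0.10 (edgeR adjusted p = 3.53e-05). Sem1, a small lid subunit, rose by 0.79 ± 0.063 and 0.29 ± 0.063, and Txnl1, a thioredoxin bound to the regulatory particle, by 0.90 ± 0.073 and 0.40 ± 0.072.

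The NFE2L1 list, the factors known to control proteasome genes with their processing enzymes and small MAF partners, was called higher for 7 of 8 genes and lower for 1 in wild-type, and higher for 1 of 8 in knockout. Nfe2l1 itself measured 117, 119 and 122 CPM, then 158, 161 and 165 CPM in wild-type, and 122, 123 and 126 CPM, then 129.8, 118 and 127 CPM in knockout. It rose in wild-type (0.43 ± 0.055) and overlapped in knockout (0.01 ± 0.055), with a difference of -0.42 ± 0.078 (edgeR adjusted p = 0.000668). Maff, a small MAF partner, was scarce and changed most, from 1.87, 1.29 and 0.850 CPM to 14.7, 15.03 and 13.9 CPM in wild-type and from 1.85, 1.08 and 1.08 CPM to 5.34, 4.71 and 3.83 CPM in knockout. Nfe2l2 and Mafg were higher in unchallenged knockout than in unchallenged wild-type, by 0.26 ± 0.070 and 0.54 ± 0.086 (edgeR adjusted p = 0.0227 and 0.000489), and after challenge lower, by -0.37 ± 0.069 and -0.37 ± 0.084. Ngly1, the deglycosylase that acts on NFE2L1, fell in wild-type (-0.42 ± 0.083).

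Of 9 genes that supply ubiquitin or extract substrates, 6 were called higher and 1 lower on challenge in wild-type, and 1 higher and 1 lower in knockout. Vcp, the segregase that feeds the proteasome, was at 308, 312 and 301 CPM without and 458, 452 and 489 CPM with challenge in wild-type, and at 294, 302 and 306 CPM and 359, 336 and 352 CPM in knockout. It rose in both genotypes (0.60 ± 0.054 and 0.22 ± 0.054) and differed by -0.39 ± 0.077 (edgeR adjusted p = 0.00109). The polyubiquitin gene Ubb rose in wild-type by 0.51 ± 0.076 and was not called in knockout (0.03 ± 0.075). Ufd1l, a cofactor of Vcp, went the other way, falling in wild-type by 0.40 on the log2 scale and in knockout by 0.16.

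For 9 of the 43 members, annotated exons overlap those of another gene, by up to 34.9% of the exon length for Psmb7 (Nek6, opposite strand), 26.8% for Psmg3 (Gm26938, same strand) and 12.1% for Psmb5 (Mir686, same strand). The strand setting of the counting is not stated, so reads in those stretches cannot be assigned with certainty. The annotated copies Psmb5-ps, Psmb6-ps and Psmb6-ps2 had 0 counts, and Psmb7-ps2 had 18 over all libraries.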

How the data were processed

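RNA of NK cells enriched from spleen was sequenced in 12 libraries, 3 in each of 4 groups (Trizol, Illumina TruSeq, polyA RNA, per the labels' protocols). The authors deposited a table of raw whole-number counts per gene for 50643 genes. Per the submitters' processing notes, reads went through RSEM 1.3.0 and Bowtie2 2.2.8 with the GRCm38 build, and Trim Galore 0.4.1 and bcl2fastq are also named. No source used here states the gene annotation, the strand setting or how RSEM estimates became whole numbers, and these decide how reads shared by copies or overlapping genes were counted. All value columns were mapped to samples, so the number not used was 0.

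The counts were tested with edgeR 4.0.16 in R 4.3.3 (TMM factors, filterByExpr, robust quasi-likelihood F test), with all 12 libraries in 1 model and Benjamini-Hochberg adjustment over 16694 genes. The 5 contrasts were the challenge in each genotype, the genotype without and after challenge, and the difference between the responses. Calls needed an adjusted p below 0.05, and the SE is the size of the log2 change over the square root of F. Levels are CPM of the TMM-scaled library. The steps were run on simulated data in which few genes changed, equally up and down and in 1 group. That run does not check the scaling where many genes change, as they did on challenge here. Labelled replicate numbers, of which the titles hold 2 kinds for the unchallenged libraries, were not used as pairs. Alternatives were other scaling factors, no filter, a fit that was not robust, the 2 groups alone, a replicate block, DESeq2 1.42.0, each library left out and unscaled totals.

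Members were chosen by symbol and summed count. Values by library are given for the catalytic core genes, Psmd14, the activators and inhibitor, the 2 members of each role with the largest wild-type change, the 2 with the smallest p in each genotype contrast and the 4 with the smallest p for the difference. Genes of other lists were named where called and among the 4 with the smallest p, and some of these are not reported here. The other genes, given with calls lost or ends of a range, were named after their values were seen. The members and lists were chosen with earlier results of these data known. Lengths, overlaps and UTRs came from GENCODE vM21, promoters and microRNAs from RefSeq GRCm38.p6.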

Additional observations from a re-analysis of the deposited data

Results flagged for a closer look

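The response to challenge differed between the genotypes for 33 of the 43 proteasome genes by the edgeR test of the difference itself, each being smaller in knockout. The 4 with the smallest p were Psma7, at -0.68 on the log2 scale, Psme2, at -1.04, Psmb2, at -0.64, and Psma1, at -0.59. In each of these 4 genes, picked from the same values, the 3 challenged knockout libraries lay below the 3 challenged wild-type libraries. The same held for 36 of the 43 members and 28.1% of all tested genes. Challenged knockout libraries also differed from challenged wild-type libraries in sex-linked transcripts and in markers of other kinds. These were neutrophil, erythroid, NK, macrophage and monocyte, B cell, T cell and dividing-cell markers. The same test of the difference called 8 of 8 neutrophil, 5 of 5 dividing-cell and 5 of 8 macrophage and monocyte markers lower. It called 7 of 7 erythroid, 6 of 6 T cell and 2 of 5 B cell markers higher, and of 8 NK markers 6 higher and 1 lower. Unchallenged and challenged knockout libraries differed in sex-linked transcripts too. The part of any of these in the difference was not tested.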

How the results depend on the processing

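Of the calls on members, 38 of 41 for the wild-type challenge, 19 of 26 for the knockout challenge, 1 of 1 between unchallenged genotypes, 32 of 37 after challenge and 29 of 33 for the difference between responses were held in every alternative run. With each library left out in turn, the counts ran from 39 to 41, 20 to 27, 1 to 1, 35 to 37 and 29 to 34. Upper-quartile scaling moved the median of all genes in the wild-type challenge by -0.107 and gave 38, 20, 1, 36 and 29 member calls. It gave 2263 higher and 2583 lower calls over all genes for the knockout challenge (2596 and 1915 with TMM), and 4606 higher and 3520 lower after challenge (3792 and 4332 with TMM). Calls lower in unchallenged knockout, 846 over all genes, were 550 and 504 without unchallenged wild-type replicates 2 and 3 and 548 without unchallenged knockout replicate 3. Without scaling, the members' summed level was 2900 CPM in unchallenged and 4445 CPM in challenged wild-type. Psmf1, near 0 in the wild-type challenge, took the other sign with no filter (0.0047), DESeq2 (0.0017), the replicate block (0.029), and without unchallenged wild-type replicate 4 (0.022) or challenged wild-type replicates 1 (0.014) or 2 (0.0036), its range with 1 library left out being -0.021 to 0.022. In the knockout challenge Psmb5 was at -0.025 without challenged knockout replicate 1 and 0.182 at most with another library left out, and Psme3 at -0.030 with upper-quartile factors, -0.0033 with the replicate block and -0.0088 without challenged knockout replicate 3, with 0.052 at most. The causes were not tested.

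No pairing by replicate number was seen. Same-numbered libraries of the 2 genotypes correlated at 0.12, -0.0485 and 0.00589 without and -0.317, 0.0576 and -0.148 with challenge by either number of the titles. Challenged wild-type replicate 3 and knockout replicate 1, which differ in number, reached 0.319. These values are deviations from means of 3 libraries and cannot exclude a shared litter, day or batch. Between unchallenged and challenged libraries of a genotype, r by the first number was 0.0165 and 0.144 for wild-type and 0.249 and 0.0236 for knockout. By the second number it was 0.158, -0.0654 and 0.038 for wild-type and -0.246, 0.0482 and -0.0245 for knockout. The fit with the replicate block of the first number called 40, 19, 1, 37 and 32 members, and 1185 genes lower in the knockout challenge over all genes against 1915. The replicate block of the second number, added after the data were seen, called 41, 22, 1, 37 and 30 members. Depth limits Psma8 most, at 213 counts in all.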
